A study of Mus musculus with 27 samples.

Results

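The intraflagellar transport (IFT) and BBSome genes were followed in whole retinas of mice aged 9 months. The 37 genes were listed by symbol, and 36 of them had counts above 0 in at least 1 library, out of 55487 genes in the table. They comprise 14 subunits of the IFT-B complex, 6 of IFT-A, 4 of the kinesin-2 motors, 2 of the dynein-2 motor, 7 of the BBSome, the BBSome GTPase Arl6 and 3 chaperonin-like assembly factors. All 36 passed the filter on low counts and were tested among 17409 genes.

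The outer segment of a photoreceptor is a modified primary cilium, joined to the cell body by a narrow connecting cilium through which its proteins must pass. IFT-B trains are carried outward by kinesin-2, and IFT-A with dynein-2 brings material back. The BBSome, recruited to membranes by the GTPase Arl6 and assembled with the help of chaperonin-like proteins, rides on these trains and removes membrane proteins from the cilium, and inherited loss of its subunits causes retinal degeneration in Bardet-Biedl syndrome.

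The study asked whether losing 1 copy of Gne, the enzyme that starts sialic acid synthesis, alters the retina, and whether complement component C3 is needed for that. Retinal RNA was measured by 3′ mRNA sequencing, 1 library per mouse. The double mutants (Gne+/- C3-/-, 6 mice) carry 1 working copy of Gne and no C3, the Gne+/- mice (7) carry 1 working copy of Gne with C3 intact, the C3-/- mice (7) lack C3 with both copies of Gne, and the WT mice (7) have both genes intact. Libraries were sequenced in run 1 (4, 5, 4 and 5 mice of these groups) and run 2 (2, 2, 3 and 2 mice). The labels name the alleles with no Cre or tissue restriction, and strain and sex are not given in the labels used here. A whole retina mixes many cell types, so fewer cells of a type and less RNA per cell cannot be told apart.

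Libraries held 13528183 to 34170608 counts (median 18478647). Gne followed the labels in each run: in run 1 it measured 32.0 to 44.0 CPM (the count scaled to the TMM-adjusted size of its library) in Gne+/- C3-/- retinas and 33.9 to 56.7 CPM in Gne+/- retinas, against 110 to 136 CPM in C3-/- and 99.2 to 162 CPM in WT retinas. In run 2 the ranges were 13.01 to 14.1 CPM in Gne+/- C3-/- and 13.1 to 16.4 CPM in Gne+/- retinas, against 43.0 to 45.8 CPM in C3-/- and 47.0 to 55.5 CPM in WT retinas. C3 measured at most 3.60 CPM in the libraries of mice labelled C3-/-, with or without the Gne allele, against at least 53.9 CPM in Gne+/- and WT libraries. Of 11 rod markers 10 had counts, with a summed level of 27206 to 72564 CPM, and Rcvrn was at 0. A marker at 0, here or below, is not read as unexpressed, because reads in overlapping genes were left out of the counts. The overlap of these markers is not given here. Of lens markers 1 of 11 (Cryba1) was at 0, and 8 passed the filter on low counts. The sum over these 8 was 55.2 to 665 CPM in Gne+/- libraries of run 1, against 1.08 to 66.9 CPM in WT libraries of run 1. The sum of 4 Y-linked genes was 471 to 583 CPM in C3-/- libraries of run 1, against 0.396 to 1.62 CPM in WT libraries of run 1, and 0.551 to 2.71 CPM in C3-/- libraries of run 2, against 289 to 327 CPM in WT libraries of run 2. Gne+/- C3-/- libraries of run 2 had 246 to 283 CPM, and those of run 1 0.565 to 591 CPM. Gne+/- libraries had 321 to 339 CPM in run 2, and in run 1 mice 1 and 4 had 358 and 627 CPM and the other 3 at most 1.64 CPM.

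Bbs12, a chaperonin-like factor, was listed at 0 in all 27 libraries. Its whole span (100%) is covered by the annotated genes Cetn4 and Gm43439, and 12949 of 12949 genes covered in this way were at 0, so the 0 is no measure of its expression. Reads that fall where annotated genes overlap were left out of the counts. Ift57 and Bbs4, though measured, have the last 500 bases of their gene fully covered by Gm15518 and Adpgk, and 57.5% of the span of Mkks is covered. Of the 37 genes, 21 overlap no other gene.

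The promoters are shown first, because ciliary transport genes are classical targets of RFX transcription factors, which bind a palindromic element called the X-box. The RefSeq promoter windows (GRCm38.p6, 300 bases, 250 before and 50 after the start) were available for 33 of the genes. The X-box form searched, GTNNCC and GGNNAC with exactly NN between them (N is any base), is its own reverse complement and was present in 6 of 33 (18.2%), against 583 of 27025 genes with a window (2.16%). The half-site GTTGCC, searched on both strands and able to overlap the full form, was present in 13 (39.4%), against 14.1% of all genes. Each match is printed below 5′ to 3′ on the strand of its gene with the matching letters in capitals.
Bbs7 (chr3:36613489-36613518, minus strand): gcgccccgGTTGCCTTGGAAACcggccagc
Wdr19 (chr5:65199654-65199683, plus strand): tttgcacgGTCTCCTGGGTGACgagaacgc
Ift22, first match (chr5:136908079-136908108, plus strand): ctgtcaggGTTTCCTGGGCTACtgcgcagc
Ift22, other match (chr5:136908109-136908138, plus strand): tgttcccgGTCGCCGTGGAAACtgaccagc
Bbs4 (chr9:59353464-59353493, minus strand): ctcagctgGTCGCCCGGGAAACggtcggct
Ift57 (chr16:49699199-49699228, plus strand): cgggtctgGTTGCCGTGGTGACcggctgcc
Bbs1 (chr19:4906605-4906634, minus strand): ctgagctgGTTGCCAAGGCGACgcctggga
The capitals begin at position -121 in Bbs7, -34 in Wdr19, -63 and -33 in Ift22, -87 in Ift57, 2 in Bbs1 and 24 in Bbs4, counted from the first base of the gene in RefSeq as 1. From the gene start in the annotation of the count table they are -33 in Bbs7, -26 in Ift57 and 3 in Bbs1, and the same in the other genes. These are letters found in a window, not sites shown to be bound, and a window without them says nothing of the factor.

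All 7 classes of the transport machinery were measured in the retina. The order of levels differed between the runs, so it is given for each. In run 2 the highest means were those of the BBSome subunit Bbs9 (463 CPM), Kifap3, the non-motor subunit of kinesin-2 (175 CPM), and the motor subunit Kif3b (167 CPM), and Ift20, an IFT-B subunit also found at the Golgi, ranked 7 with 113 CPM. In run 1 Ift20 came first (1068 CPM), before Bbs9 (340.4 CPM) and Kifap3 (301 CPM). The lowest means of run 2 were those of Dync2li1 (7.81 CPM), Ift27 (7.40 CPM) and the chaperonin-like Bbs10 (6.38 CPM), and those of run 1 Bbs10 (6.40 CPM), Ttc21b (6.06 CPM) and Traf3ip1 (5.29 CPM). Pooled over the 27 mice, the 3 highest were Ift20, Bbs9 and Kifap3, and the 3 lowest the accessory kinesin Kif17, Traf3ip1 and Bbs10, an order that mixes the runs. CPM from a 3′ protocol is not per length of transcript, and overlap with other genes lowers it, so these levels rank counts and not molecules. The dynein-2 heavy chain Dync2h1 averaged 152 CPM in run 2 and 172 CPM in run 1, and its light intermediate chain Dync2li1 7.81 and 25.6 CPM in those runs. Within IFT-A, the core subunit Ift122 averaged 77.5 CPM in run 2 and 218 CPM in run 1, and Wdr19 23.9 and 6.91 CPM.

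The 2 sequencing runs gave different levels for most of these genes. Between run 2 and run 1, 24 of 36 genes (66.7%) passed an adjusted p of 0.05 in edgeR, 11 higher and 13 lower, against a background of 59.5% of all tested genes (30.3% higher, 29.2% lower). Their share lay close to that background. Ift20 averaged 113 CPM in run 2 and 1068 CPM in run 1 (log2 fold change -3.26, SE 0.146). Ttc21b of IFT-A averaged 30.8 CPM in run 2 and 6.06 CPM in run 1 (log2 fold change 2.34, SE 0.183), and the BBSome subunits Bbs4 and Ttc8 were also higher in run 2 (2.26, SE 0.167, and 2.19, SE 0.131). Bbs9 differed less (0.44, SE 0.0774), and Bbs7 had a log2 difference of 0.01 (SE 0.092). Every genotype value below is therefore given within a run or from a model with run as a term.

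**Figure D1:**
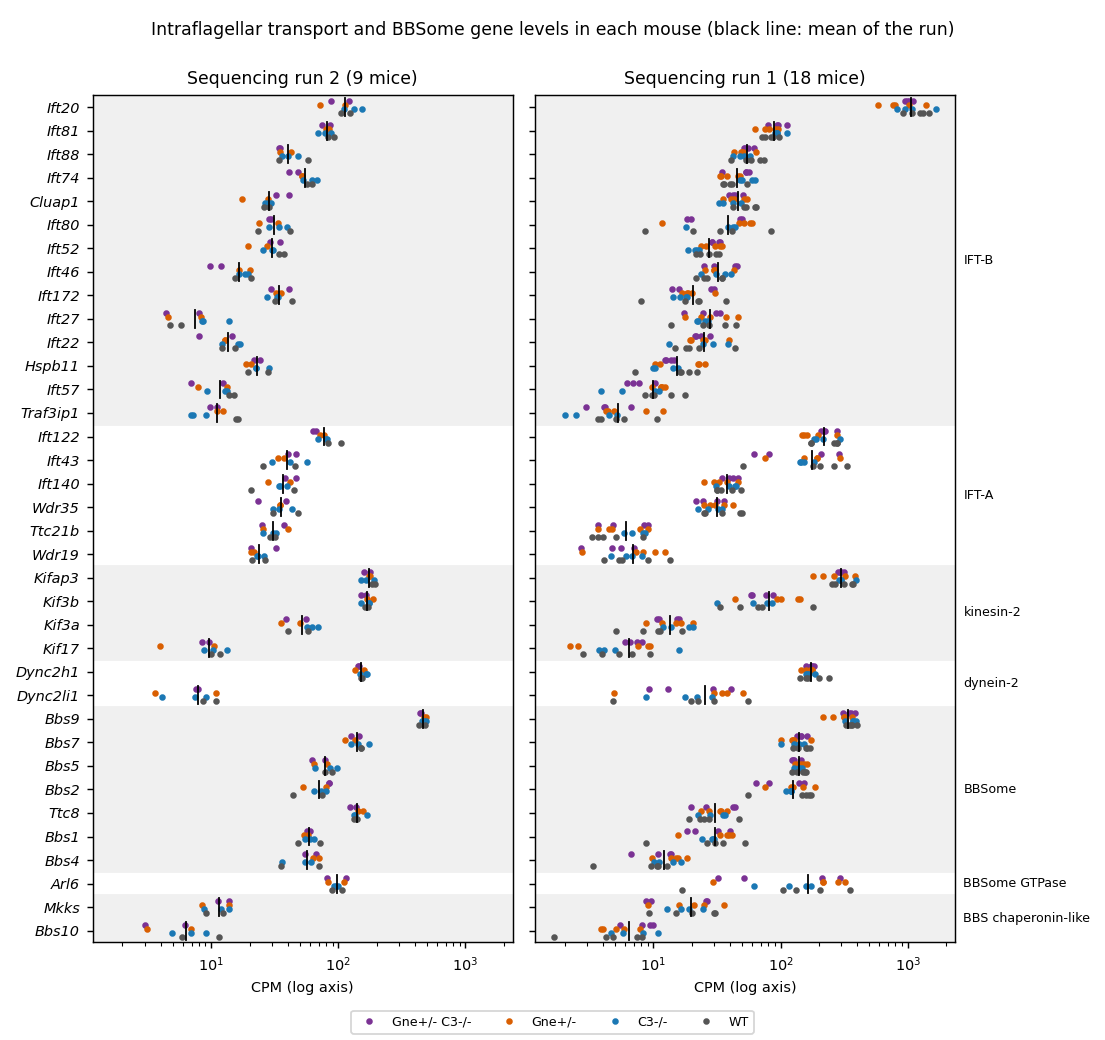
Level of each of the 36 genes in every mouse (CPM, log axis), run 2 on the left and run 1 on the right, with genes grouped by complex, points coloured by genotype and the mean of the run as a black line. Ift20 stands near 1068 CPM in run 1 and 113 CPM in run 2, Arl6 spans 16.8 to 354.5 CPM in run 1 and 80.8 to 115 CPM in run 2, and no gene separates the 2 genotypes of a comparison in the same direction in both runs.

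Losing 1 copy of Gne was first examined with C3 intact. Of the 36 genes, 0 passed in Gne+/- against WT with edgeR, DESeq2 or limma-voom, where 0.00574% of all tested genes, Gne itself, passed with edgeR. At an unadjusted p of 0.05, 3 genes (8.33%) passed with edgeR, against 5.76% of all genes, 4 (11.1%) with DESeq2, against 6.93%, and 8 (22.2%) with limma-voom, against 8.84%. Log2 differences were positive for 16 genes and negative for 20, with a median of -0.05, against 0.01 over all genes. The lens markers given above also differed between these groups in run 1. Bipolar cell markers had negative log2 differences in 8 of 8 tested genes (median -0.17, 0 passing and 3 with an unadjusted edgeR p under 0.05), with a summed level of 2674 to 4238 CPM in Gne+/- and 2969.9 to 4415 CPM in WT libraries of run 1. The part of either in these differences was not tested. The Y-linked level also differed, being high in 2 of 5 Gne+/- libraries and low in all 5 WT libraries of run 1, and with it as a covariate 0 of the 36 genes passed as well, with log2 differences of -0.35 for Ift20 and 0.54 for Bbs4. IFT-B had 6 of 14 positive, IFT-A 2 of 6, kinesin-2 2 of 4, dynein-2 1 of 2 and the BBSome 3 of 7.

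The gene with the smallest p was Ift20, which in photoreceptors helps to carry opsin from the Golgi to the cilium. Run 1 gave Ift20 levels of 589, 790.2, 767, 1019 and 1383 CPM in Gne+/- mice 1 to 5, against 1262, 917, 1080.0, 1328 and 1473 CPM in WT mice 1, 2, 4, 5 and 6. Levels of Ift20 in run 2 were 113 and 71.7 CPM in Gne+/- mice 7 and 8, against 106 and 124 CPM in WT mice 7 and 8. The groups overlapped in both runs, with Gne+/- mouse 5 the second highest of these run 1 libraries. The log2 fold change was -0.39 (SE 0.159, edgeR adjusted p = 0.849), -0.39 in run 1 alone and -0.30 in run 2 alone. It was -0.29 with the first principal component of run 1, described below, as a covariate. In these run 1 libraries that component was above 0 in Gne+/- mice 1 to 4 and WT mice 2 and 4, and below 0 in the others.

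Bbs4, a BBSome subunit that binds the pericentriolar protein PCM-1, had the next smallest p. Levels of Bbs4 in run 1 were 9.69, 15.6, 13.8, 15.0 and 18.3 CPM in Gne+/- mice 1 to 5, against 10.9, 3.33, 10.6, 9.63 and 12.8 CPM in WT mice 1, 2, 4, 5 and 6. Run 2 gave Bbs4 levels of 70.0 and 63.6 CPM in Gne+/- mice, against 69.9 and 35.4 CPM in WT mice. In run 1, 4 of the 5 Gne+/- mice lay above every WT mouse, WT mouse 2 was the lowest library, and the groups overlapped. With run in the model, the log2 fold change was 0.53 (SE 0.228, edgeR adjusted p = 0.849), 0.64 in run 1 alone and 0.36 in run 2 alone. With the same principal component as a covariate it was 0.70. The 3′ end of this gene lies under Adpgk, so its counts come from the part that is not shared.

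The same copy loss was then examined in mice without C3. Of the 36 genes, 0 passed in Gne+/- C3-/- against C3-/- with edgeR, DESeq2 or limma-voom, against a background of 0.00574%, which was again Gne. At an unadjusted p of 0.05, 1 gene passed with each of the 3 tools (2.78% of the genes, against 1.35% of all genes with edgeR, 2.07% with DESeq2 and 4.12% with limma-voom). The median log2 difference was -0.02, against -0.01 over all genes, with 14 genes positive and 22 negative.

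Ift52, a core IFT-B subunit, was the gene with the smallest p in this comparison. Run 1 gave Ift52 levels of 32.6, 33.2, 28.9 and 29.0 CPM in Gne+/- C3-/- mice 3 to 6, against 22.8, 21.8, 21.2 and 18.8 CPM in C3-/- mice 1, 2, 5 and 6. Levels of Ift52 in run 2 were 34.6 and 28.9 CPM in Gne+/- C3-/- mice, against 30.6, 30.1 and 25.7 CPM in C3-/- mice. All 4 double mutants of run 1 lay above all 4 C3-/- mice, while the groups of run 2 overlapped. In run 1 the means of Gne+/- (29.6 CPM) and WT mice (27.2 CPM) lay nearer to the double mutants (30.9 CPM) than to the C3-/- mice (21.2 CPM). In run 2 the Gne+/- mice (mean 23.5 CPM) lay below the WT mice (mean 35.9 CPM), the opposite direction. The log2 fold change in Gne+/- C3-/- against C3-/- was 0.38 (SE 0.166, edgeR adjusted p = 1), 0.56 in run 1 alone and 0.14 in run 2 alone.

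Ift74, which pairs with Ift81 to bind tubulin, was next. Levels of Ift74 in run 1 were 34.4, 53.8, 56.0 and 53.1 CPM in Gne+/- C3-/- mice 3 to 6, against 50.2, 62.5, 59.4 and 48.2 CPM in C3-/- mice 1, 2, 5 and 6. Run 2 gave Ift74 levels of 48.1 and 41.2 CPM in Gne+/- C3-/- mice, against 68.0, 61.8 and 52.3 CPM in C3-/- mice. The groups overlapped in run 1 and did not in run 2, where they also differ wholly in the Y-linked level given above. With run in the model, the log2 fold change was -0.23 (SE 0.154, edgeR adjusted p = 1), -0.14 in run 1 alone and -0.44 in run 2 alone, and it was -0.24 with the Y-linked level as a covariate. Ift74 lies on chromosome 4, 50.5 Mb from Gne, as do Hspb11 and Kif17 at 63.2 and 94.2 Mb.

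An interaction term asked whether the Gne effect depended on C3. Of the 36 genes, 0 passed with edgeR, DESeq2 or limma-voom, with 0% of all genes passing in edgeR, and 1, 2 and 3 genes (2.78%, 5.56% and 8.33%) had an unadjusted p under 0.05 with these tools, against 3.18%, 3.88% and 7.65% of all genes. Cluap1, a peripheral IFT-B subunit, had the smallest p, with a log2 difference of the effects of 0.50 (SE 0.229, edgeR adjusted p = 1). In run 1 it measured 44.0, 50.8, 42.5 and 39.2 CPM in Gne+/- C3-/- mice, against 32.6, 49.0, 42.6 and 35.4 CPM in C3-/- mice. In the same run it measured 35.2, 40.4, 43.1, 52.0 and 54.9 CPM in Gne+/- mice, against 51.6, 42.0, 53.8, 64.6 and 62.4 CPM in WT mice. The groups overlapped in both pairs of genotypes in run 1. In run 2 it measured 32.1 and 41.2 CPM in Gne+/- C3-/- mice, against 29.3, 27.7 and 26.2 CPM in C3-/- mice, and 28.1 and 17.4 CPM in Gne+/- mice, against 28.4 and 25.9 CPM in WT mice. There the double mutants lay above the C3-/- mice, and the other pair overlapped. Ift52 followed with 0.45 (SE 0.229, edgeR adjusted p = 1).

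Loss of C3 was compared with WT in mice with both copies of Gne. Of the 36 genes, 0 passed in C3-/- against WT with edgeR, DESeq2 or limma-voom, against a background of 0.167%. At an unadjusted p of 0.05, 2 genes (5.56%) passed with edgeR, against 4.49% of all genes, 3 (8.33%) with DESeq2, against 5.61%, and 5 (13.9%) with limma-voom, against 7.63%. The median log2 difference was -0.06, against -0.01 over all genes, with 14 genes positive. In run 1 the 4 C3-/- libraries and the 5 WT libraries also differ wholly in the level of Y-linked genes given above, in the opposite direction to run 2. With the Y-linked level as a covariate 0 of the 36 genes passed as well (smallest edgeR adjusted p = 0.804).

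Traf3ip1, an IFT-B subunit that binds microtubules, had the smallest p here. Levels of Traf3ip1 in run 1 were 5.13, 2.45, 4.43 and 2.02 CPM in C3-/- mice 1, 2, 5 and 6, against 5.09, 10.7, 5.89, 3.64 and 3.86 CPM in WT mice 1, 2, 4, 5 and 6. Run 2 gave Traf3ip1 levels of 6.88, 7.24 and 9.03 CPM in C3-/- mice, against 15.6 and 16.2 CPM in WT mice. The groups overlapped in run 1 and stood apart in run 2. The 2 WT mice of run 2 also lay above the Gne+/- mice (mean 11.7 CPM) and the Gne+/- C3-/- mice (mean 10.4 CPM). That separation was thus not particular to C3-/- mice. With run in the model, the log2 fold change in C3-/- against WT was -0.83 (SE 0.311, edgeR adjusted p = 0.755). It was -0.74 in run 1 alone and -1.03 in run 2 alone.

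Kif3a, a motor subunit of kinesin-2 whose loss from photoreceptors kills them in mice, was next. Run 1 gave Kif3a levels of 19.1, 13.8, 11.8 and 20.3 CPM in C3-/- mice 1, 2, 5 and 6, against 10.8, 16.8, 11.3, 8.35 and 5.11 CPM in WT mice 1, 2, 4, 5 and 6. Levels of Kif3a in run 2 were 56.4, 62.1 and 68.8 CPM in C3-/- mice, against 39.8 and 58.1 CPM in WT mice. The ranges overlapped in both runs. The log2 fold change was 0.55 (SE 0.219, edgeR adjusted p = 0.861), 0.62 in run 1 alone and 0.36 in run 2 alone. Ift140 and Dync2li1 lie on chromosome 17 with C3, at 32.1 and 27.4 Mb from it, and their log2 differences in C3-/- against WT were 0.09 (SE 0.169) and -0.44 (SE 0.445).

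The double mutants were also set against Gne+/- and against WT. In Gne+/- C3-/- against Gne+/-, 0 of 36 genes passed with edgeR, DESeq2 or limma-voom, against a background of 0.19%. An unadjusted p under 0.05 was found for 0 genes with edgeR, against 6.4% of all genes, 0 with DESeq2, against 7.67%, and 4 (11.1%) with limma-voom, against 11.4%. The smallest p belonged to Ift57, a peripheral IFT-B subunit, at -0.44 (SE 0.262, edgeR adjusted p = 0.822) and to Traf3ip1 at -0.49 (SE 0.323, edgeR adjusted p = 0.847). These differences were -0.57 and -0.64 in run 1 alone, and -0.13 and -0.16 in run 2 alone. In Gne+/- C3-/- against WT, 0 of 36 passed with the same 3 tools, against a background of 0.155%. At an unadjusted p of 0.05, 1 gene (2.78%) passed with each tool, against 4.96% of all genes with edgeR, 5.84% with DESeq2 and 8.57% with limma-voom. There 25 genes had a negative and 11 a positive log2 difference, with a median of -0.09, against -0.01 over all genes. Of 8 cone markers tested in Gne+/- C3-/- against WT, 6 had positive log2 differences (median 0.25) and 1 passed with edgeR. Against Gne+/- 6 of the 8 were also positive (median 0.20) and 1 passed. Lens markers had a median of 1.84 against WT (6 of 8 positive) and -2.03 against Gne+/- (1 of 8 positive), with 0 passing. The part of any of these was not tested. Gne+/- C3-/- against WT shares its mice with the other comparisons, so its values are not separate evidence.

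In Gne+/- C3-/- against WT the smallest p was that of Ift57, which has its 3′ end under Gm15518. Levels of Ift57 in run 1 were 6.18, 7.67, 10.2 and 6.92 CPM in Gne+/- C3-/- mice 3 to 6, against 13.7, 9.80, 17.6, 10.2 and 8.51 CPM in WT mice 1, 2, 4, 5 and 6. Run 2 gave Ift57 levels of 6.92 and 12.4 CPM in Gne+/- C3-/- mice, against 13.7 and 15.1 CPM in WT mice. The groups overlapped in run 1 and not in run 2. The WT mice of run 2 also lay above all Gne+/- mice and all C3-/- mice of that run in Ift57. The separation in run 2 was thus not particular to the double mutants. With run in the model, the log2 fold change in Gne+/- C3-/- against WT was -0.61 (SE 0.262, edgeR adjusted p = 0.898), -0.61 in run 1 alone and -0.57 in run 2 alone. Wdr35, an IFT-A subunit, followed at -0.36 (SE 0.193, edgeR adjusted p = 1), measuring 31.6, 36.2, 24.5 and 21.6 CPM in Gne+/- C3-/- mice of run 1, against 34.9, 47.7, 50.04, 24.9 and 25.3 CPM in WT mice of run 1. In run 2 it measured 23.2 and 38.5 CPM in Gne+/- C3-/- mice, against 48.2 and 30.8 CPM in WT mice, again with overlap.

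In none of the 5 pairwise comparisons did any of the 36 genes separate the groups in the same direction in both runs. The background of this count was 0.0689% of tested genes in Gne+/- against WT, 0.253% in Gne+/- C3-/- against C3-/-, 0.511% in C3-/- against WT, 0.758% in Gne+/- C3-/- against Gne+/- and 0.609% in Gne+/- C3-/- against WT. Separation within a single run, given above for some genes, was not counted over all genes and so has no background here. Run 2 holds only 2 or 3 mice per genotype, so groups can stand apart there easily.

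**Figure D2:**
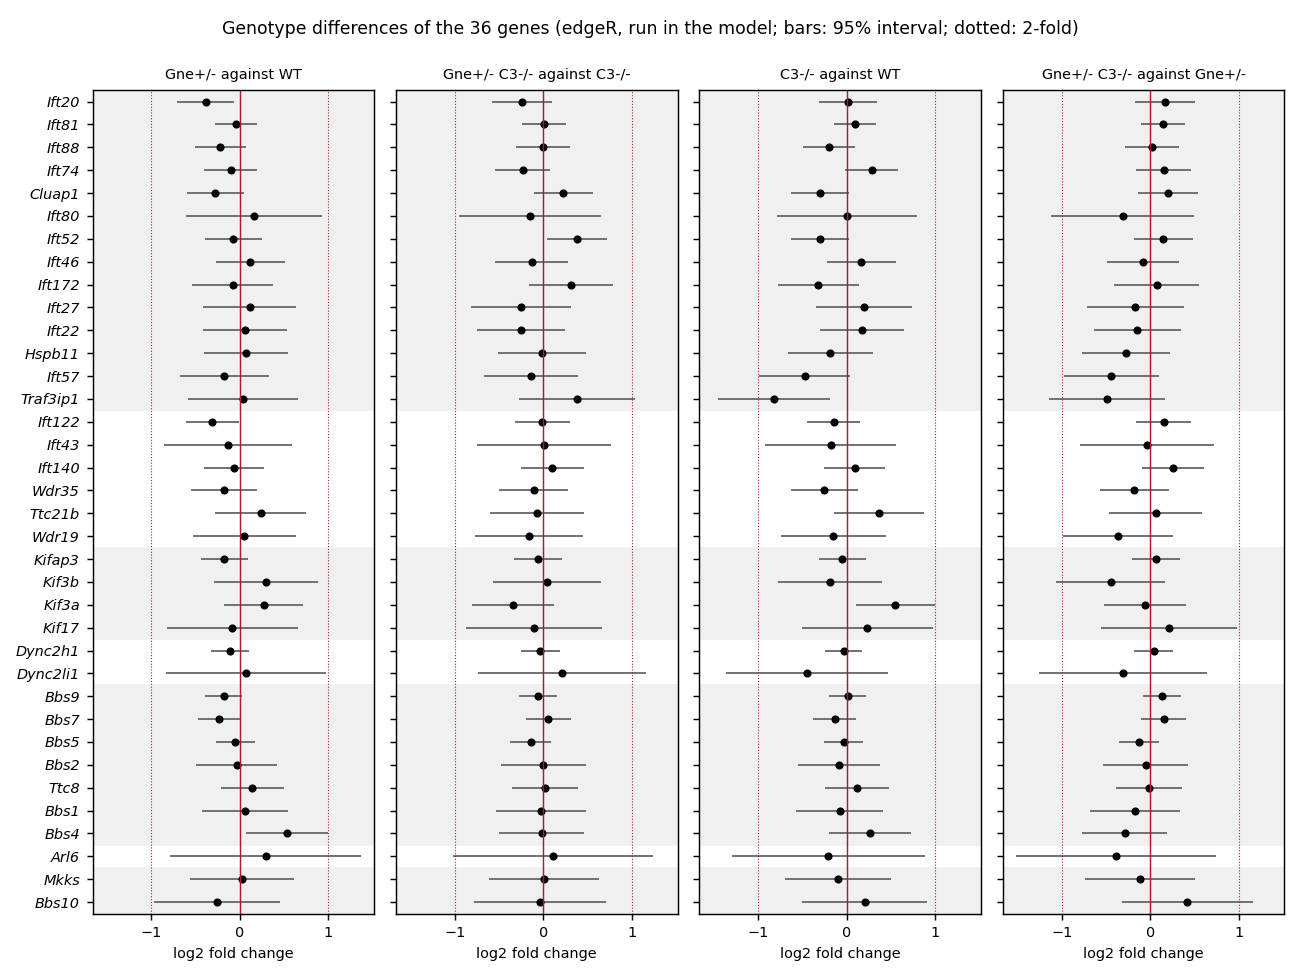
Log2 fold change of each gene (point) with its 95% interval (bar) in 4 genotype comparisons, with sequencing run in the model, the solid line at 0 and dotted lines at 2-fold in either direction. Intervals are narrow for Bbs9 and Dync2h1 and widest for Arl6 and Dync2li1, and 0 of the 36 genes passed the threshold in any panel.

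The 95% intervals show which sizes of change are compatible with the values. The shares over all genes given beside the counts were not matched for level, on which the width of an interval depends. In Gne+/- against WT the interval lay within a 2-fold change either way for 35 of 36 genes, against 54.5% of all tested genes. The exception was Arl6, at 0.29 (interval -0.79 to 1.37). The counts were 33 in Gne+/- C3-/- against C3-/- (91.7%, against 56.1% of all genes), 33 in C3-/- against WT (91.7%, against 54.8%), 30 in Gne+/- C3-/- against Gne+/- (83.3%, against 52.2%), 32 in Gne+/- C3-/- against WT (88.9%, against 53.4%) and 22 for the interaction (61.1%, against 41.7%). Within a 1.5-fold change lay 18 genes in Gne+/- against WT (50%, against 31% of all genes), 19 in Gne+/- C3-/- against C3-/- (52.8%, against 34%), 15 in C3-/- against WT (41.7%, against 32.4%), 18 in Gne+/- C3-/- against Gne+/- (50%, against 28.7%), 18 in Gne+/- C3-/- against WT (50%, against 29.7%) and 6 for the interaction (16.7%, against 14.9%).

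Arl6, whose interval was the widest, differed widely among mice of the same genotype in run 1. Levels of Arl6 in run 1 were 294, 210.3, 51.2 and 32.5 CPM in Gne+/- C3-/- mice 3 to 6, and 214, 324, 216, 282 and 29.4 CPM in Gne+/- mice 1 to 5. The C3-/- mice 1, 2, 5 and 6 had 174, 117, 158 and 62.2 CPM of Arl6, and WT mice 1, 2, 4, 5 and 6 had 134, 354.5, 203, 104 and 16.8 CPM. High and low mice occurred in each genotype, and the lowest and the highest library were both WT. In 4 of 4 genotypes the lowest mouse was the one with the highest number in run 1. What a mouse number stands for is not given in the labels used here, and its part in the pattern was not tested. The log2 SD over the 18 mice was 1.30, at percentile 99.7 of 5424 genes with a mean log2 CPM of at least 5. In run 2 Arl6 measured 115 and 80.8 CPM in Gne+/- C3-/- mice, 112 and 82.6 CPM in Gne+/- mice, 92.2, 96.3 and 100.1 CPM in C3-/- mice, and 88.8 and 107 CPM in WT mice. The log2 SD over those 9 mice was 0.18, at percentile 40.5.

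Other transport genes followed Arl6 over the 18 mice of run 1. Arl6 was chosen for this after its values had been seen, and all the genes come from the same libraries. Correlations of log2 CPM were tested by permutation (2-sided, 100000 permutations) and adjusted over 17408 genes. Of 35 other members, 10 (28.6%) were positively correlated at an adjusted p of 0.05, against a background of 15.6%, and 7 (20%) negatively, against 12.5%. No test of these shares was run. Positively correlated were the dynein-2 chain Dync2li1 (r = 0.97), Ift80 of IFT-B (0.96), Ift43 of IFT-A (0.92), the BBSome subunits Bbs1 (0.91), Bbs2 (0.89) and Bbs5 (0.58), the assembly factor Mkks (0.90), the motor Kif3b (0.83), Wdr35 (0.71) and Traf3ip1 (0.58). Negatively correlated were Ift46 (-0.73), Ift140 (-0.70), Ift27 (-0.69), Ift122 (-0.63), Ift172 (-0.62), Ift81 (-0.61) and Ift20 (-0.58). By Spearman's rho 9 of the 10 and 6 of the 7 also passed, without Bbs5 (rho 0.51, permutation adjusted p = 0.0991) and Ift172 (rho -0.43, permutation adjusted p = 0.189).

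The relation was strongest for Dync2li1, with an adjusted p of 0.000154 by permutation (raw p 1e-05, the smallest these permutations can give). Spearman's rho was 0.97 (permutation adjusted p = 0.000183), and r was 0.95 without the 2 mice farthest from the median of Arl6. In run 1 Dync2li1 measured 41.0, 29.3, 13.1 and 9.24 CPM in Gne+/- C3-/- mice 3 to 6 and 34.5, 37.9, 29.9, 51.0 and 4.93 CPM in Gne+/- mice 1 to 5. The C3-/- mice 1, 2, 5 and 6 had 22.2, 17.8, 28.7 and 8.78 CPM of Dync2li1, and WT mice 1, 2, 4, 5 and 6 had 22.3, 55.7, 30.1, 19.9 and 4.82 CPM. The mice lowest in Arl6 were the lowest in Dync2li1 too, in each of the 4 genotypes. In run 2 it lay between 3.61 and 10.98 CPM.

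Ift80, a peripheral IFT-B subunit, showed a similar order of mice. Levels of Ift80 in run 1 were 47.6, 49.6, 19.8 and 18.5 CPM in Gne+/- C3-/- mice 3 to 6 and 52.0, 57.9, 46.8, 60.1 and 11.8 CPM in Gne+/- mice 1 to 5. The C3-/- mice had 38.6, 43.9, 42.2 and 18 CPM of Ift80, and the WT mice 33.5, 84.6, 41.4, 20.6 and 8.63 CPM, in the same order of mice. Over all 18 mice r had a permutation adjusted p of 0.000154 and rho, at 0.94, one of 0.000183, and r without the 2 farthest mice was 0.92. Ift43 ranged over 50.6 to 334 CPM in run 1 with rho 0.84 (permutation adjusted p = 0.000297), and over 25.6 to 56.2 CPM in run 2.

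Ift46, an IFT-B core subunit, ran the other way. Run 1 gave Ift46 levels of 25.0, 30.0, 43.6 and 45.1 CPM in Gne+/- C3-/- mice 3 to 6 and 29.8, 29.9, 30.6, 25.4 and 42.9 CPM in Gne+/- mice 1 to 5. The C3-/- mice had 23.5, 36.4, 30.9 and 40.7 CPM of Ift46, and the WT mice 26.4, 21.6, 34.4, 24.8 and 34.8 CPM. The mouse lowest in Arl6 had the highest Ift46 of its genotype in 4 of 4 genotypes. Over all 18 mice r had a permutation adjusted p of 0.00372 and rho, at -0.69, one of 0.0106, and r without the 2 farthest mice was -0.77. Of the 10 positive correlations, 10 kept an r of at least 0.5 without those 2 mice, and of the 7 negative ones 3 kept an r of -0.5 or below. Leaving out single mice lowered the negative count to 4 without WT mouse 2, without WT mouse 6 or without Gne+/- mouse 5.

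Over the 9 mice of run 2, 0 members were correlated with Arl6 in either direction at an adjusted p of 0.05 (exact permutation over all orders), with a background of 0%. Arl6 itself ranged only over 80.8 to 115 CPM in those mice. With genotype means subtracted, Kif3a (r = 0.95, permutation adjusted p = 0.0342) and Bbs10 (r = -0.94, permutation adjusted p = 0.0223) passed in run 2, 1 of 35 members in each direction, against 0.528% and 0.46% of all genes. That permutation over all orders does not keep mice within their genotype. When only orders within genotypes were used, 0 members and 0% of all genes passed, with an exact unadjusted permutation p of 0.0417 for both genes. The smallest p those orders gave for any gene was 0.0208, so the adjusted threshold was out of reach. In run 1, with genotype means subtracted, Dync2li1 had r = 0.98 and Ift80 r = 0.96 (permutation within genotypes, adjusted p = 0.000791 and 0.00102). By the same permutation Kif3a had r = 0.47 (adjusted p = 0.222) and Bbs10 r = 0.66 (adjusted p = 0.042). The correlation of Bbs10 with Arl6 thus had opposite signs in the 2 runs.

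Much else in the run 1 libraries moved with Arl6. Its level had r = 0.94 and rho = 0.96 with the first principal component of all tested genes other than the 36, which held 16.7% of the variance (permutation adjusted p = 0.00018 for both, over 18 measures). The sign of that component is arbitrary and was set so that it rises with Arl6. It was below 0 in 7 of 7 run 1 mice numbered 5 or 6 and in 2 of 11 numbered 1 to 4. Amacrine cell markers (6 looked for, 0 at 0, summed level over the 5 tested 577 to 920.2 CPM in run 1) had r = 0.87 and rho = 0.81 (permutation adjusted p = 0.00018 and 0.00099). Müller glia markers (7 looked for, 0 at 0, 4314 to 6648 CPM) had r = -0.70 and rho = -0.71, bipolar markers (9 looked for, Pcp2 at 0, 2674 to 4518 CPM) r = -0.66 and rho = -0.73, and microglia markers (8 looked for, 0 at 0, 26.1 to 78.9 CPM) r = -0.66 and rho = -0.66. The permutation adjusted p of these lay between 0.00468 and 0.013. Pigment epithelium markers (8 looked for, Lrat at 0, 199 to 781 CPM) had r = 0.56 and rho = 0.61, fibroblast markers (5 looked for, 0 at 0, 7.63 to 23.3 CPM) r = 0.54 and rho = 0.62, and the mitochondrial share of counts r = 0.56 and rho = 0.50 (permutation adjusted p = 0.0411 for r and 0.0782 for rho). Rod markers had r = 0.25 and the total count r = -0.10, neither passing. The part of any of these in the pattern among the transport genes was not tested.

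**Figure D3:**
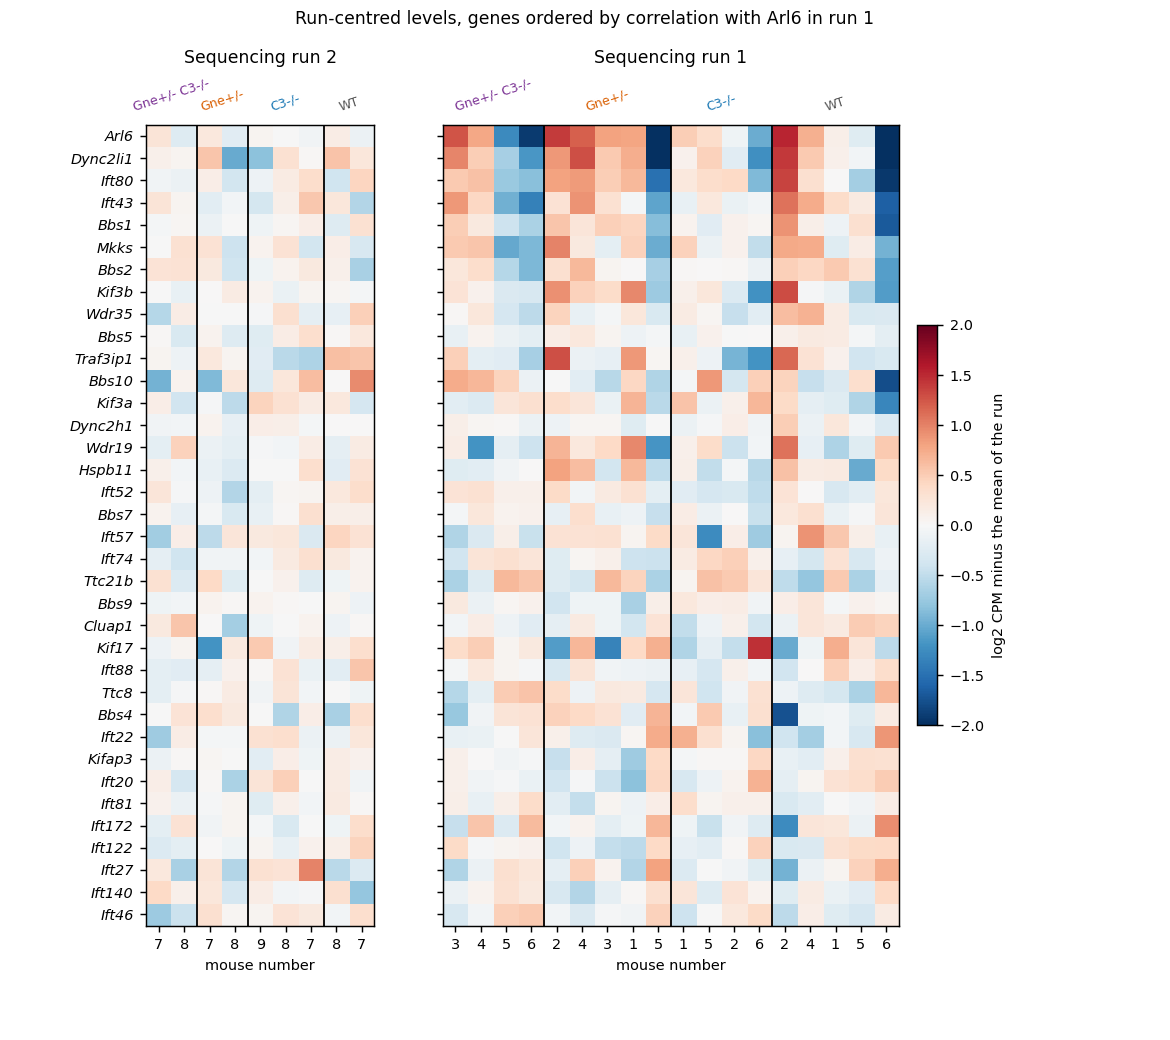
Log2 CPM of Arl6 and the other 35 genes minus the mean of the run, with run 2 mice on the left and run 1 mice on the right, columns grouped by genotype and ordered by Arl6 within it, rows ordered by correlation with Arl6 in run 1. In run 1 the upper rows (Dync2li1, Ift80, Ift43, Bbs1) go from red to blue within each genotype and the lowest rows (Ift140, Ift46) tend the other way, while run 2 is pale.

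**Figure D4:**
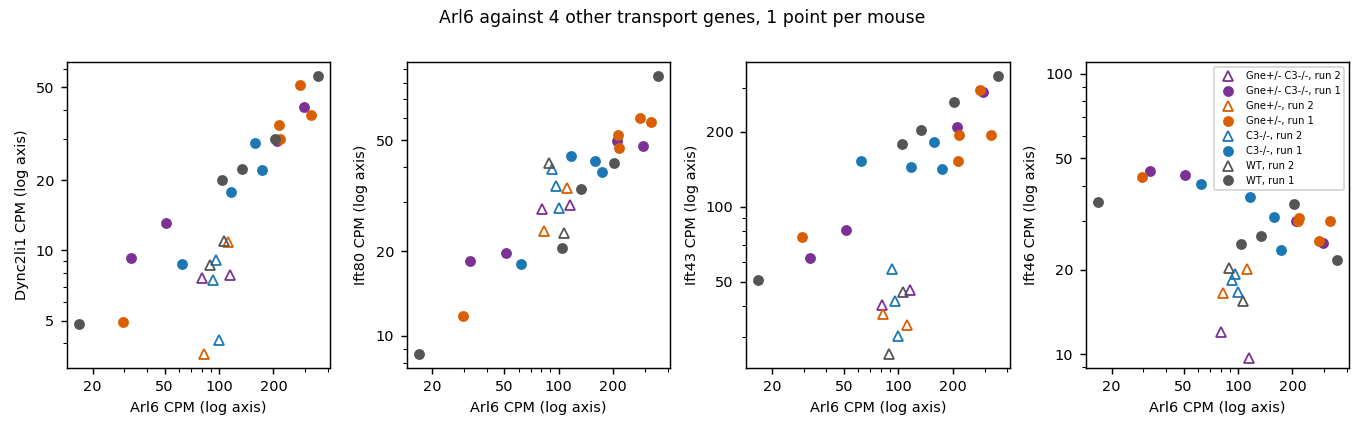
CPM of Dync2li1, Ift80, Ift43 and Ift46 against CPM of Arl6 (log axes), 1 point per mouse, coloured by genotype, with open triangles for run 2 and filled circles for run 1. Over the run 1 mice r on the log2 scale was 0.97, 0.96, 0.92 and -0.73, and each genotype spreads along the trend.

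The X-box letters were also counted by correlation with Arl6 in run 1. Of 13 correlated genes with a promoter window 1, Bbs1, held the full form (7.69%), against 5 of 18 that were correlated in neither direction (27.8%; Bbs4, Bbs7, Ift22, Ift57 and Wdr19) and 2.16% of all genes. The half-site was held by 7 of the 13 (53.8%), against 6 of the 18 (33.3%) and 14.1% of all genes. No test of these shares was run. Steadiest over the 18 mice of run 1 were Bbs5 (log2 SD 0.13), Dync2h1 (0.18), Ift81 (0.22) and Bbs9 (0.22). Bbs9, of the same complex that Arl6 recruits, measured 311 to 386 CPM in Gne+/- C3-/- mice, 216 to 365 CPM in Gne+/- mice, 321 to 391 CPM in C3-/- mice and 328 to 400.5 CPM in WT mice of run 1.

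Other cilium genes, from lists of transition zone, cargo delivery, outer segment, further transport and ciliary transcription factor genes, gave no call either. Of 71 listed, 64 were tested, and 0 passed with edgeR in each of the 6 genotype comparisons. An unadjusted p under 0.05 was found for 5 (7.81%, against 5.76% of all genes) in Gne+/- against WT, 1 (1.56%, against 1.35%) in Gne+/- C3-/- against C3-/-, 5 (7.81%, against 6.4%) in Gne+/- C3-/- against Gne+/-, 1 (1.56%, against 4.96%) in Gne+/- C3-/- against WT, and 0 in C3-/- against WT and in the interaction. In Gne+/- against WT the smallest p belonged to Invs of the inversin compartment (0.68, SE 0.219), Spata7 of the connecting cilium (-0.40, SE 0.161) and the IFT-B subunit Ttc26 (0.55, SE 0.241), with edgeR adjusted p of 0.834, 0.849 and 0.849. In Gne+/- C3-/- against C3-/- they were the dynein-2 intermediate chain Wdr60 (-0.24, SE 0.111), Rab11a (-0.30, SE 0.156) and Rom1 (-0.21, SE 0.157), each with an edgeR adjusted p of 1.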

How the data were processed

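Retinal RNA of 27 mice was sequenced with a 3′ kit, per the labels' protocols. The authors deposited unnormalized read counts for each gene. The submitters' processing notes name STAR 2.7.3a, featureCounts, Subread 2.0.0 and GRCm38 (mm10), and the file headers record featureCounts 2.0.3 with the Ensembl release 101 annotation. Per the file headers, exon and whole-gene features were counted without strand, and reads in overlapping genes were not assigned.

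The whole table was fitted in edgeR 4.0.16 (R 4.3.3): filterByExpr with a minimum count of 10, TMM scaling, and a robust quasi-likelihood test of 4 genotypes plus run with 22 residual degrees of freedom. The common biological coefficient of variation was 55.1%. Benjamini-Hochberg adjustment covered 17409 genes. CPM uses TMM-scaled totals, and log2 CPM a prior count of 2. DESeq2 1.42.0 and limma 3.58.1 were alternatives. Correlations used permutation in Python 3.11.15 (all orders for 9 mice). The edgeR fit and the correlation were tested on simulated data. Named genes were the 2 with the smallest p in each comparison, the 3 highest and the 3 lowest in level, the targeted genes and members on their chromosomes. Members named for run differences, other levels, promoter letters or correlation with Arl6 were chosen after their values were seen. The genes, lists and Arl6 were chosen with earlier results of these data known.

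Mice share numbers across genotypes, but of 31 pairs with the same number within a run 5 had a correlation over 0.1 (median 0.0106), so the numbers were not taken to pair the mice. That check covered identical numbers only. The 120 pairs with different numbers had a median of -0.00105, and their share over 0.1 was not counted. Mice numbered 5 or 6 in run 1 resembled each other across genotypes in the first principal component given above. These numbers are unevenly spread, since the Gne+/- group of run 1 holds mouse 5 but no mouse 6, and every other genotype holds both. The part of this in the genotype comparisons was not tested. Each library is labelled as a separate mouse.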

Additional observations from a re-analysis of the deposited data

Results flagged for a closer look

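Of 144 groups of 4 or 5 mice within run 1 (36 genes in 4 genotypes) tested for a sample far from the others (Dixon's criterion), 10 were flagged, and chance flags about 1 group in 20. C3-/- mouse 6 was highest for 2 kinesin genes, with 394.4 CPM of Kifap3 and 15.83 CPM of Kif17, and lowest for Bbs2, with 111.2 CPM. WT mouse 6 was lowest for Bbs2, with 55.68 CPM, and highest for Ift22, with 43.7 CPM. Gne+/- mouse 5 was lowest for Ift80, at 11.78 CPM, and highest for Ift172, at 30.52 CPM. These 3 mice were each the lowest of their genotype in Arl6. Kif3b was highest in WT mouse 2, at 180.1 CPM, and Ift81 in C3-/- mouse 1, at 111.5 CPM. Ift74 was lowest in Gne+/- C3-/- mouse 3, at 34.43 CPM.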

How the results depend on the processing

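The count of members past the threshold was 0 in each of the 6 genotype comparisons under DESeq2, limma-voom with quality weights, RLE scaling, no low-count filter, over 1 CPM in at least 6 libraries, estimation without the robust option, a model lacking the run term, run 1 or run 2 alone, the Y-linked covariate, the run 1 principal component as covariate (added after seeing the data) and without each mouse in turn. With the mouse number as a replicate block it was also 0 in each, and the smallest adjusted p was 0.728. Between runs, 25 members passed with RLE scaling and 25 with DESeq2, against 24. The 12 log2 fold changes of named genes kept their sign under every alternative. Some moved by over 1.5 times. In run 2 alone, Ift52 in Gne+/- C3-/- against C3-/- was 0.14 and Ift57 in Gne+/- C3-/- against Gne+/- was -0.13. Also in run 2 alone, the interaction of Ift52 was 0.74 and Kif3a in C3-/- against WT was 0.36. Ift74 in Gne+/- C3-/- against C3-/- was -0.44 in run 2 alone, -0.14 in run 1 alone and -0.16 without Gne+/- C3-/- mouse 8. Traf3ip1 in Gne+/- C3-/- against Gne+/- was -0.16 in run 2 alone, -0.18 with the replicate block, -0.24 with the principal component and -0.27 without Gne+/- mouse 2. Medians over the members lay between -0.14 and 0.09 and changed sign in 5 of the 6 comparisons under some setting, the exception being Gne+/- C3-/- against WT. Correlations with Arl6 in run 1 (alternatives chosen after seeing the data) gave 8 to 10 positive and 4 to 8 negative members when 1 mouse was left out, against 10 and 7, with 4 negative without WT mouse 2, WT mouse 6 or Gne+/- mouse 5. RLE scaling gave 8 positive and 7 negative, genotype-centred values 11 and 8, and these permuted within genotypes 9 and 5. The causes were not tested.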

Other observations

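The members' mean run-centred log2 level per mouse ranged over -0.30 to 0.20 across the 27 mice. The lowest were WT mouse 6 (-0.30) and Gne+/- mouse 5 (-0.24), and the highest was Gne+/- mouse 4 (0.20), all of run 1. By group, its mean in run 1 was -0.02 in Gne+/- C3-/-, 0.05 in Gne+/-, -0.03 in C3-/- and -0.01 in WT mice, and in run 2 -0.05, -0.09, 0.05 and 0.07 in the same order of groups.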
